A study of Homo sapiens with 15 samples.

Results

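A-485 plus GNE-781 was compared with DMSO by 3′ end RNA sequencing of MM.1S, a cell line from a human multiple myeloma. The comparison takes in 6 of the 15 libraries of the series: the 3 libraries treated for 6 h with both inhibitors, each at 100 nM (called the combination here), and the 3 libraries given DMSO, the solvent, for the same time. They were chosen by their titles, with no measured value. The other 9 libraries are from cells given A-485 alone, GNE-781 alone or dCBP-1 at 100 nM for 6 h, 3 each, and the groups with a single inhibitor are used below to see what the second inhibitor added. All groups are the same cell line in RPMI medium with serum, with no engineered allele, and the labels do not say whether replicates came from different cultures. The p-values rest on the spread among libraries, which may be technical.

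CBP and p300, encoded by CREBBP and EP300, are paralogous coactivators that transcription factors bring to enhancers and promoters. Their catalytic domain acetylates histone tails and other proteins, and their bromodomain binds acetylated lysine. A-485 competes with acetyl-CoA at the catalytic domain, GNE-781 occupies the bromodomain, and the combination addressed what happens to transcripts when both domains are blocked at once. Myeloma cells are malignant plasma cells that rely on the lineage factor IRF4 and on MYC, and in MM.1S the transcription factor MAF is driven by a translocation to the immunoglobulin heavy chain locus. These libraries measure RNA and hold no measure of acetylation.

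Depth was 14.99 to 17.31 M reads for DMSO and 14.66 to 18.29 M for the combination. Replicates 1 and 2 of DMSO differed in quality measures from the remaining 4 libraries. The share of reads from mitochondrially encoded genes was 23.1% and 19.7% in these 2 libraries, 16.4% in the third DMSO library and 14.4% to 17.0% with the combination. When all libraries were thinned to 13.1 M reads, the number of genes detected was 16287 and 17386 in the 2 libraries, 19676 in the third and 19123 to 19849 with the combination. The comparison was therefore also made with DMSO replicate 3 as the only DMSO library, and the part of these quality measures in the results was not tested. All 10 plasma cell and myeloma markers were detected, among them SDC1 and TNFRSF17. Of 19 markers of other cell types, 6 had 0 reads in all 6 libraries, among them CD3D, CD8A, NKG7, CSF1R and ELANE. The summed level of the list was 204 to 299 in DMSO and 155 to 181 in the combination. Most of it came from the B cell marker CR2 and the globin HBB, which had reads in every library. CR2 had 75.9 to 112.9 in DMSO and 70.1 to 77.5 in the combination. HBB had 75.9 to 146.9 and 40.7 to 72.1.

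Levels are the authors' normalized read counts, which in 3′ end sequencing do not scale with transcript length. TMM scaling would divide them by 0.954, 0.974 and 1.105 in DMSO replicates 1, 2 and 3. The factors were 0.937, 1.077 and 1.079 in the combination replicates. The order of replicates within a gene, given below on the deposited levels, can thus reflect the library as well as the gene. A log2 fold change is the difference of group means of log2(level + 1), given with its SE, and tests are limma's with Benjamini-Hochberg adjustment over 16104 genes. A gene is said to have risen or fallen where the adjusted p was below 0.05. In bulk RNA, fewer cells that hold a transcript and less of it in each cell cannot be told apart.

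With the combination, transcripts of the plasma cell program and of MYC were lower, and EGR1 led the genes that were higher. In all, 3383 genes were called, 21.0% of those tested, with 1837 higher (11.4%) and 1546 lower (9.60%). Of these, 560 rises (3.48% of genes tested) and 436 falls (2.71%) were at least 2 fold. Against DMSO replicate 3 alone, 1064 genes were called (6.61%), 284 higher (1.76%) and 780 lower (4.84%), so the balance turned from rises to falls. Without DMSO replicate 2 the count over the other libraries was 2215, and without combination replicate 2 it was 2050.0. The balance also moved with scaling and tool. Falls outnumbered rises by DESeq2 (2295 and 2080) and under median-ratio scaling (2126 and 2057). edgeR called 2043 lower and 2054 higher, and TMM scaling gave 2003 lower and 2202 higher. The fits with 3 DMSO libraries and with 1 both called 234 genes higher and 694 lower, and none in opposite directions. Of the 1837 rises, 1781 kept a positive log2 fold change against DMSO replicate 3, and of the 1546 falls 1544 kept a negative one. A fit with 1 DMSO library has no spread among DMSO libraries, and the SE of MYC was 0.50 there and 0.33 in the main fit. A call lost in that fit therefore does not by itself show a smaller change. The median over all genes tested was 0.09 against the 3 DMSO libraries and −0.09 against DMSO replicate 3. DMSO replicate 3 was the highest DMSO library for 73.7% of the genes called higher, against 54.8% of all genes tested. The combination libraries lay wholly above the DMSO libraries for 2506 genes (15.6%) and wholly below for 2382 (14.8%). Genes that fell had a median level of 646 over the 6 libraries and those that rose 303.7, against 182.6 for all genes tested. Protein-coding genes made up 91.8% of the falls and 90.9% of the rises, against 79.4% of the genes tested.

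**Figure D1:**
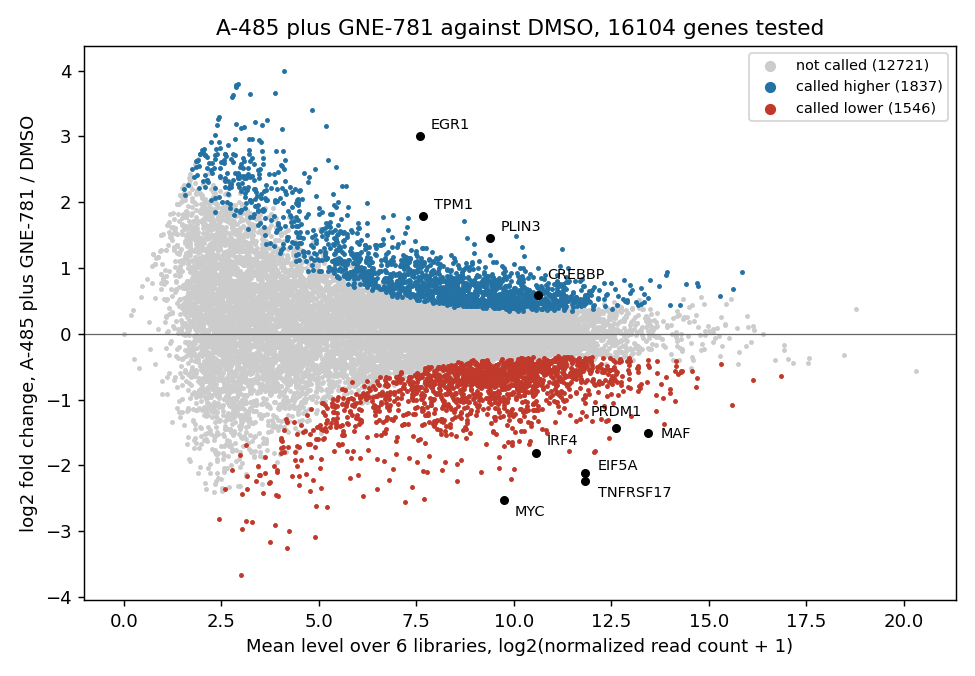
Log2 fold change of the combination against DMSO (y axis) by mean level over the 6 libraries, log2(normalized read count + 1) (x axis), for 16104 genes, each a point. Blue marks the 1837 genes called higher, red the 1546 called lower, and black the genes with a name, from EGR1 at 3.0 to MYC at −2.53.

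MYC, the growth-promoting transcription factor, had levels of 1221, 1709 and 1413 in the DMSO libraries and 162, 229.75 and 412 in the combination libraries. All 3 combination libraries were far below DMSO, with replicate 1 lowest. The log2 fold change was −2.53 ± 0.33 (limma adjusted p = 4.2e-06), and −2.50 against DMSO replicate 3 (adjusted p = 0.0024). TNFRSF17 encodes BCMA, a receptor for survival cytokines and a target in myeloma therapy. It had 5714, 6948 and 5409 in DMSO and 1329, 1313 and 1183 in the combination. Its combination libraries lay close together and the log2 fold change was −2.23 ± 0.15 (adjusted p = 3.5e-11 by limma). IRF4 had 2211, 2318 and 2476 in DMSO and 484, 676 and 905 in the combination, again with replicate 1 lowest and replicate 3 highest. Its fall was −1.81 ± 0.19 (limma adjusted p = 1.4e-07) and −1.89 against DMSO replicate 3 (adjusted p = 0.0002). EGR1, an immediate early zinc finger factor, had 32.7, 33.8 and 61.9 in DMSO and 416, 320.3 and 282 in the combination. The lowest treated library was several times the highest DMSO library. The rise of 3.0 ± 0.24 (limma adjusted p = 1.4e-09) became 2.42 against DMSO replicate 3 (adjusted p = 2.1e-05), the DMSO library in which EGR1 was highest.

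The 12 largest falls and 12 largest rises were taken from genes called in both fits, without overlap between the 6 libraries, and with a mean level at or above the median. Their size is thus how they were chosen. The falls ran from −2.53 to −1.94, or 3.84 to 5.76 fold, and after MYC and TNFRSF17 they took in genes of several kinds. SPRY1, which restrains growth factor signaling to ERK, had 681, 683 and 472 in DMSO and 108, 109.8 and 175 in the combination. The retinoic acid receptor RARA had 1515, 1989 and 1277 in DMSO and 237, 301 and 545 in the combination. CYP26A1, the enzyme that clears retinoic acid, had 1318, 1369 and 1049.96 in DMSO and 171, 285 and 561 in the combination. In RARA and CYP26A1 alike, combination replicate 3 was the highest of the treated libraries but below every DMSO library, as the choice of genes required. CXCR3, a chemokine receptor, fell from 590.1 ± 53.5 to 151 ± 28.4 (SD, n = 3). HDAC9, a class IIa deacetylase, fell from 479 ± 43.2 to 124 ± 17.2, and NEURL1, a ubiquitin ligase of the Neuralized family, from 325 ± 37.1 to 77.7 ± 22.6. IGFBP3, which binds insulin-like growth factors, fell from 1624 ± 180.5 to 416 ± 186.

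EIF5A, an elongation factor of translation modified with hypusine, is a fall whose size turns on the DMSO libraries. It had 8933, 6109 and 2872 in DMSO replicates 1, 2 and 3 and 1237, 1105 and 1387 in the combination. The DMSO libraries differed from each other more than the combination libraries did, and the log2 fold change of −2.12 ± 0.24 became −1.21 ± 0.23 against DMSO replicate 3 (limma adjusted p = 0.0017). TAF6L, a subunit of coactivator complexes with acetyltransferase activity, had 362, 347 and 176 in DMSO and 74.0, 67.9 and 75.3 in the combination. Its −1.94 became −1.27 against DMSO replicate 3 (limma adjusted p = 0.014). RPL41P5, a ribosomal protein pseudogene, had −2.07, and reads shared with near-identical RPL41 copies make its assignment uncertain.

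Among the 12 rises, TPM1 and LIMA1 belong to the actin cytoskeleton, a list in which 3 genes rose and 7 fell of 24. TPM1, a tropomyosin that lies along actin filaments, had 68.2, 69.6 and 150.5 in DMSO and 325, 352 and 263 in the combination. LIMA1, an actin-bundling protein, had 241, 177 and 303 in DMSO and 542, 705 and 697 in the combination. Neither gene overlapped between the groups, as the choice of genes required, and DMSO replicate 3 was their highest DMSO library. PLIN3, a coat protein of lipid droplets, had 328, 316 and 438 in DMSO and 945, 1124 and 882 in the combination, a rise of 1.45 ± 0.16 (limma adjusted p = 1.8e-07). DOK1, an adaptor that dampens tyrosine kinase signaling, rose by 1.36 ± 0.18, and DYNC1I2, an intermediate chain of cytoplasmic dynein, by 1.32 ± 0.20. SMYD3, a lysine methyltransferase, rose by 1.31 ± 0.22. RALGAPA2, of a GTPase-activating complex for Ral, rose by 1.305 ± 0.19, and IFFO1, of the intermediate filament family, by 1.30 ± 0.19. KRBOX5, a KRAB box gene, rose by 1.24 ± 0.18. FANCL, the ubiquitin ligase of the Fanconi anemia pathway, rose by 1.23 ± 0.17, and BBS7, a part of the ciliary BBSome, by 1.20 ± 0.18. Against DMSO replicate 3 the 12 rises had 0.75 to 2.42 and the 12 falls −2.50 to −1.21.

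**Figure D2:**
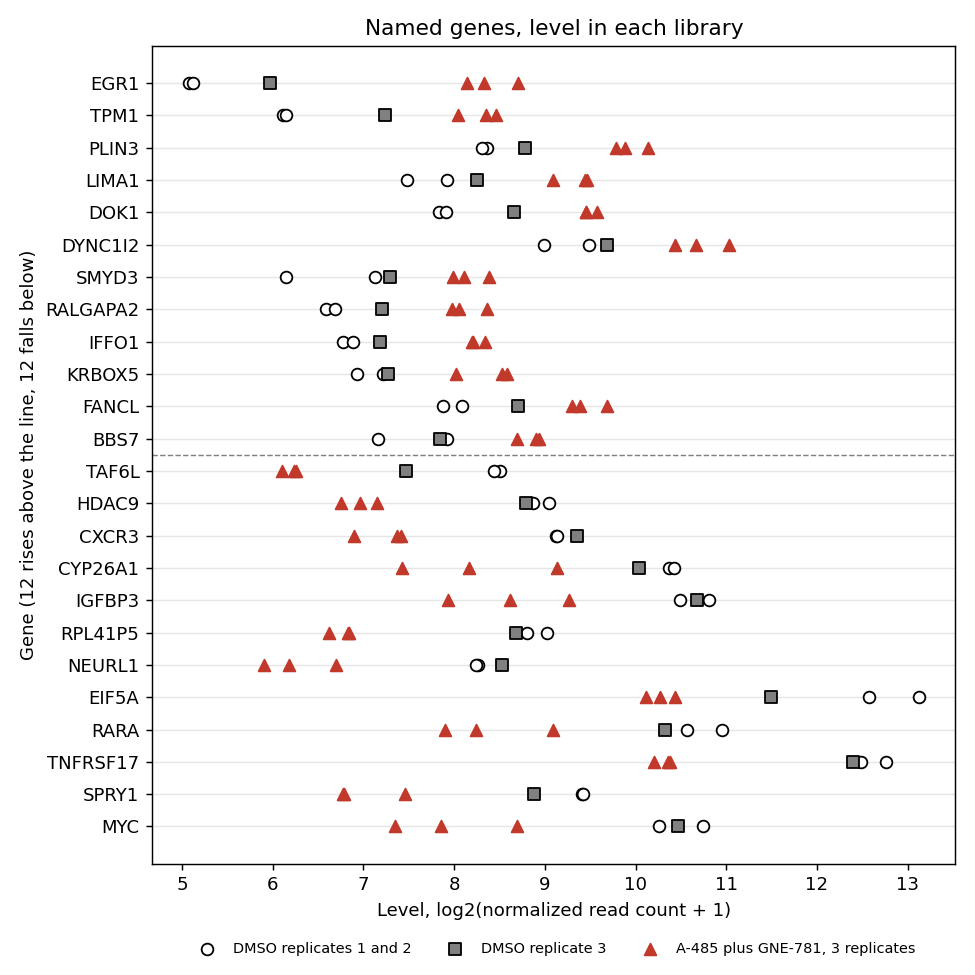
Level in each of the 6 libraries, log2(normalized read count + 1) (x axis), for the 12 rises above the dashed line and the 12 falls below it (y axis). Open circles are DMSO replicates 1 and 2, grey squares DMSO replicate 3 and red triangles the 3 combination libraries, which for each gene lie on 1 side of all DMSO libraries, as the choice of genes required.

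Promoters of 3 of these genes are shown because they hold known regulatory motifs: EGR1 is the largest rise and a classic target of serum response factor, and CYP26A1 and TAF6L, of the 9 falls with a promoter in the RefSeq table, are those with a CACGTG E-box, the motif that MYC and MAX bind along with other factors. Each is the 250 bases before the first listed RefSeq start on GRCh38.p14, 5′ to 3′ on the plus strand, at chr5:138465229-138465478, chr10:93073225-93073474 and chr11:62771146-62771395. Capitals mark CArG boxes, the motif of serum response factor, in EGR1 and CACGTG in the other promoters.
EGR1: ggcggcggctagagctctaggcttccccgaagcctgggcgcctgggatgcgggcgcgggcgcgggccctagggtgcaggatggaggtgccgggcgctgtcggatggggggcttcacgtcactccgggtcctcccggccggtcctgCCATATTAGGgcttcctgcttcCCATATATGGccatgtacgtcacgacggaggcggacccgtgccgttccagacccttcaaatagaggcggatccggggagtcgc
CYP26A1: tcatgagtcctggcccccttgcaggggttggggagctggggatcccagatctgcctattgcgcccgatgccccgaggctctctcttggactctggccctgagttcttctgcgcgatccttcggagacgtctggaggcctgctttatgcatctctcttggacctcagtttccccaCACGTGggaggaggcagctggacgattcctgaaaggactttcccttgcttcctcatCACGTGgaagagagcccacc
TAF6L: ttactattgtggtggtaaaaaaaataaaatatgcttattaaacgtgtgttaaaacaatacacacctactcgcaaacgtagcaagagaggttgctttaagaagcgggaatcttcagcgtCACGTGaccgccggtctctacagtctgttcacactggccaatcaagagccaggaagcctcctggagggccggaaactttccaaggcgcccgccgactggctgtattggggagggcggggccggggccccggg
The EGR1 boxes begin 105 and 83 bases before the start, the CYP26A1 E-boxes 76 and 20, and the TAF6L E-box 132. The printed matches do not overlap. In promoters of 300 bases, from 250 before to 50 after the start and searched on both strands, CACGTG was held by 14.5% of 1152 genes that fell, 8.68% of 1451 that rose and 9.98% of the 11120 genes tested with a promoter in the RefSeq table. The CArG box was in 1.48%, 0.965% and 1.03%, the cyclic AMP response element TGACGTCA in 3.12%, 3.86% and 3.19%, and a core of the interferon-stimulated response element in 2.95%, 2.76% and 2.90%. Of these 4 motifs, CACGTG had the widest spread between falls and rises. These shares describe letters in a window and carry no test. The 3 printed promoters were picked for their motifs, and other named genes held searched motifs too. Among the rises, DYNC1I2 held a CArG box 234 bases before its start and BBS7 a TGACGTCA 24 bases before. CYP26A1 also held the interferon-stimulated core, from 9 bases after its start and outside the printed stretch.

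The genes of the targeted proteins moved little. Counts for this and each later list stand beside 11.4% of all genes tested called higher and 9.60% called lower. A count near these shares says little about its list. The shares are those of the fit with all DMSO libraries. Against DMSO replicate 3 alone calls were fewer over all genes tested, and a larger share of rises than of falls lost theirs. A call lost or kept there thus says little by itself about a list. CREBBP had 1314, 1081 and 1396 in DMSO and 1726, 2080.2 and 1859.7 in the combination, a rise of 0.58 ± 0.15 (limma adjusted p = 0.0046). Against DMSO replicate 3 it was 0.43 and not called (limma adjusted p = 0.21). EP300 had 1309.8, 1167 and 1102 in DMSO and 1248, 1850.4 and 1609.6 in the combination, with overlapping groups and 0.38 on the log2 scale (adjusted p = 0.096 by limma). Of 11 other lysine acetyltransferases and related coactivators, 1 rose, the nuclear receptor coactivator NCOA1 at 0.625 ± 0.16, also not called against DMSO replicate 3. Of 22 genes of bromodomain readers and transcription elongation, 4 rose and 3 fell. The falls were elongation factors, SUPT5H (−0.73), the scaffold AFF1 (−0.75) and ELL (−0.65), and all 3 were also called against DMSO replicate 3. The rises, LARP7 of the 7SK particle (0.86), AFF4 (0.67), the Mediator subunit MED1 (0.53) and the BET protein BRD3 (0.47), were not. Median-ratio scaling gave 6 rises and 5 falls in this list. Among the acetyltransferases with CREBBP and EP300, 2 rose and 2 fell under TMM or median-ratio scaling and by edgeR or DESeq2.

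Most lineage transcription factors measured lower. Of 33 factors of plasma cells and lymphocytes, 19 fell and 0 rose, beside 9.60% and 11.4% of all genes tested, and 18 of the 19 were also called lower against DMSO replicate 3. The median log2 fold change was −0.61 and −0.75 against DMSO replicate 3. Among 10 master regulators 9 fell. MAF had 15296, 18021 and 15865 in DMSO and 5148, 5547 and 6709 in the combination, and PRDM1, which drives plasma cell differentiation, had 9387, 9718 and 8465 in DMSO and 2932, 3531 and 3774. The groups were far apart in both genes, with log2 fold changes of −1.50 ± 0.14 and −1.435 ± 0.13. POU2AF1, the coactivator of OCT factors at B lineage genes, had 2517, 2565 and 3147 in DMSO and 818, 926 and 1162 in the combination (−1.51 ± 0.15). XBP1, which expands the secretory apparatus, fell less (−0.82 ± 0.13), as did the Ikaros family members IKZF1 (−0.61) and IKZF3 (−0.79) and MEF2C (−0.52). Of 23 other lymphoid factors 10 fell, with ETS1 at −1.26, KLF2 at −0.99, FLI1 at −0.97 and KLF13 at −0.915.

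Targets of MAF in myeloma followed the same direction. Of 8 tested, 5 fell and 0 rose, each also against DMSO replicate 3, and the median was −1.04. CCR1, a chemokine receptor, had 7681, 8024 and 9406 in DMSO and 2566, 2746 and 3064 in the combination. The kinase NUAK1 had 1137, 1202 and 1399.5 in DMSO and 434, 533 and 728 in the combination, and DEPTOR, an mTOR inhibitor, had 2177, 1805 and 1889 and then 766, 1054 and 1038. None of the 3 overlapped between groups, and in each gene combination replicate 1 was lowest on the deposited levels. CCND2, the D cyclin that MAF drives in myeloma, fell from 21175.5 ± 319 to 11502 ± 2075, by 0.90 ± 0.15 on the log2 scale. TLR4, an innate immune receptor, had −1.035 ± 0.18.

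Surface proteins of myeloma cells were the next list. Of 41 tested, 20 fell and 1 rose, 16 of the 20 also against DMSO replicate 3, with a median of −0.65. TNFRSF13B, the TACI receptor related to TNFRSF17, had 3991, 4428 and 4322 in DMSO and 1313, 1135 and 1247 in the combination (−1.79 ± 0.13). SDC1, the syndecan CD138, had 6254, 6976 and 7369 in DMSO and 2583, 2950.5 and 2848 in the combination (−1.30 ± 0.12). Both groups were tight and did not overlap. Of 10 TNF receptor family genes only these 2, TNFRSF17 and TNFRSF13B, fell. Of 15 myeloma surface antigens 9 fell, among them CD28 (−1.03) and CD38 (−0.64). Of 10 cytokine and chemokine receptors 7 fell, including the interleukin 6 receptor subunits IL6R (−1.29) and IL6ST (−0.89). Integrins ITGA4 (−0.91) and ITGAL (−0.98) fell, and ITGB1 was the gene that rose (0.40, and 0.52 with adjusted p = 0.10 against DMSO replicate 3 by limma). Of 10 identity markers fixed to check the cell line, 9 fell. JCHAIN, the joining chain of polymeric immunoglobulin, was not called (−0.18, limma adjusted p = 0.43). The lists share members, so some falls are counted more than once. IRF4, PRDM1 and POU2AF1 are both lineage factors and identity markers, and TNFRSF17 is both a surface protein and an identity marker. CCR1 is in the lists of MAF targets and of surface proteins.

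Kinases and adaptors of B cell receptor signaling were mixed in size. Of 20 tested, 6 fell and 1 rose, 5 of the 6 also against DMSO replicate 3, with a median of −0.35. Median-ratio scaling gave 10 falls and 1 rise, as did DESeq2. PTK2B, a focal adhesion family kinase, had 6969, 6525 and 6513 in DMSO and 1779.7, 1924 and 2049 in the combination (−1.80 ± 0.13, limma adjusted p = 1.1e-10). The adaptor BLNK had 495, 574 and 557 in DMSO and 154, 166 and 246 in the combination (−1.55 ± 0.18), and the phosphatase PTPN6 fell by 1.255 ± 0.15 on the log2 scale. PIK3CD, a catalytic subunit of PI3 kinase, rose from 27.4 ± 9.14 to 75.7 ± 18.8, but was not called against DMSO replicate 3 (log2 fold change 1.205, limma adjusted p = 0.071).

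Around MYC, 6 of the 12 genes of the MYC and MAX network fell and 0 rose, but MYC alone was also called against DMSO replicate 3. The median was −0.49, and 3 fell without combination replicate 1 or without combination replicate 2. MXD3, an antagonist of MYC, had −0.95 ± 0.17 and −0.54 against DMSO replicate 3. MYCL, a paralog at low level, had 62.5, 60.1 and 85.0 in DMSO and 25.5, 11.3 and 42.6 in the combination. Against DMSO replicate 3 the log2 fold change was −1.83 for MYCL and −0.58 and −0.54 for the network members MXI1 and MLXIP. These 3 genes thus lost the call there without losing the fall. MAX, the shared partner, had −0.18 and was not called (limma adjusted p = 0.44). Genes of ribosome biogenesis, many of them known MYC targets, fell in 24 of 53 cases and rose in 1, with 15 of the 24 also called against DMSO replicate 3. The median was −0.35 and −0.57 against DMSO replicate 3, and 15 fell without combination replicate 1. RRP9, a processing factor of the U3 snoRNP, had 826, 864 and 746.5 in DMSO and 337, 386 and 380.0 in the combination. PPAN, a nucleolar assembly factor, had 906, 983 and 782 in DMSO and 369, 339.5 and 432 in the combination, although it overlaps a readthrough transcript that may share its reads. The GTPase GNL3 had −0.71, the processing factors UTP20 −0.785 and RRP12 −0.98, and the catalytic subunit of RNA polymerase I, POLR1A, −0.70. The single rise was POLR3G of RNA polymerase III (0.55, limma adjusted p = 0.037), not called against DMSO replicate 3. Of 18 enzymes of nucleotide and polyamine synthesis, 2 fell (PAICS −0.56 and ODC1 −0.41) and 1 rose (SMS 0.62), with a median of −0.25, and 0 were called in the same direction against DMSO replicate 3. Without DMSO replicate 1 or combination replicate 2, 1 fell and 0 rose, and leaving out DMSO replicate 3 gave 3 falls and 2 rises. Scaling moved this list more: 8 fell and 2 rose with TMM scaling. Median-ratio scaling gave 9 falls and 2 rises, edgeR 8 and 2, and DESeq2 10 and 2.

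Immediate early genes did not move together. Of 21 tested, 5 rose and 3 fell (3 and 2 without DMSO replicate 2 or without combination replicate 2), with a median of 0.14, and EGR1 and ZFP36L2 alone were also called against DMSO replicate 3. ZFP36L2, which promotes decay of AU-rich transcripts, had 4749, 5987 and 4738 in DMSO and 1716, 2266 and 2542 in the combination (−1.26 ± 0.17). JUN had 0.58 and its relative JUNB −0.52, while FOS had 0.85, SRF 0.88 and the orphan nuclear receptor NR4A2 1.19. Feedback genes of the ERK pathway were likewise split, with 3 rises and 5 falls of 20 and a median of −0.34. SPRY1 fell, as did CCND1, a cyclin downstream of ERK, and DUSP2, DUSP4 and DUSP5, phosphatases that switch off ERK family kinases. Of the 8 dual specificity phosphatases tested, 3 fell and 1 rose. DUSP5 had 1974, 2505 and 3866 in DMSO and 1453, 1601 and 1824 in the combination. DMSO replicate 3 was by far its highest library, so its −0.72 ± 0.17 was −1.255 against that library alone. ETV5, an ETS factor induced by ERK, rose. It had 320.0, 288 and 453 in DMSO and 701, 823 and 725 in the combination (1.11 ± 0.16, and 0.72 against DMSO replicate 3 with limma adjusted p = 0.019).

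In the NF-kB pathway, 7 genes of 27 fell and 3 rose, with a median of −0.27, and each of the 7 was also called against DMSO replicate 3. They were the subunit NFKB2 (−1.16), the coactivator BCL3 (−0.90), the deubiquitinase and feedback inhibitor TNFAIP3 (−1.145), the survival genes BIRC3 (−1.10) and CFLAR (−0.68), TNFAIP8 (−0.73) and PLEK (−1.02). BIRC3 had 2020.0, 1967 and 2497 in DMSO and 886, 1021 and 1104 in the combination. The rises were the subunit RELA (0.44), the inhibitor NFKBIA (0.46) and CD83 (2.03), which were at −0.04, −0.06 and 0.55 and not called against DMSO replicate 3. Their share of the list was close to the 11.4% of all genes tested that rose. Genes of apoptosis control fell on both sides. Of 14 BCL2 family members 6 fell and 0 rose (median −0.45). Antiapoptotic BCL2 had 1091, 1106 and 1210.2 in DMSO and 493, 613 and 620.2 in the combination, and BCL2L1 had 1308, 1636 and 1826 and then 697, 719.8 and 1127. Proapoptotic BMF had 652, 559 and 765 in DMSO and 258, 263 and 339 in the combination. These 3 were also called against DMSO replicate 3, while BCL2L11 (−0.56), BAD (−0.775) and MCL1 (−0.46) were not.

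Cell cycle genes were called in both directions. Of 8 D and E cyclins and their kinases 4 fell: CCND1 (−1.445), CCND2, CDK6 (−0.91) and CCNE1 (−0.42), the last not called against DMSO replicate 3. Of 7 inhibitors 2 rose, CDKN2D (0.84 ± 0.16, and 0.73 against DMSO replicate 3 with limma adjusted p = 0.041) and CDKN1C (0.73 ± 0.21, but not called against DMSO replicate 3). Of 45 genes of G2 phase and mitosis 17 rose and 2 fell, with a median of 0.32, but 0 of the 17 rises were called against DMSO replicate 3, where the median was 0.15. The count of rises was 11 without DMSO replicate 2 and 10 without combination replicate 2. AURKA, a spindle kinase, had 737, 849 and 1294 in DMSO and 1558, 1827 and 1659.8 in the combination. DMSO replicate 3 was nearest to the combination, and the log2 fold change of AURKA was 0.85 over the 3 DMSO libraries and 0.375 against replicate 3. The kinetochore gene NDC80 had 484, 548 and 694 in DMSO and 983, 1346 and 1108 in the combination. CKS2, a subunit of cyclin-dependent kinases, went the other way (−0.79 ± 0.16, and −0.86 against DMSO replicate 3). Of 34 DNA replication genes 7 rose (median 0.155, and 4 rises without combination replicate 2), and RRM2, of ribonucleotide reductase, was the one also called against DMSO replicate 3 (0.605, and 0.62 there).

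**Figure D3:**
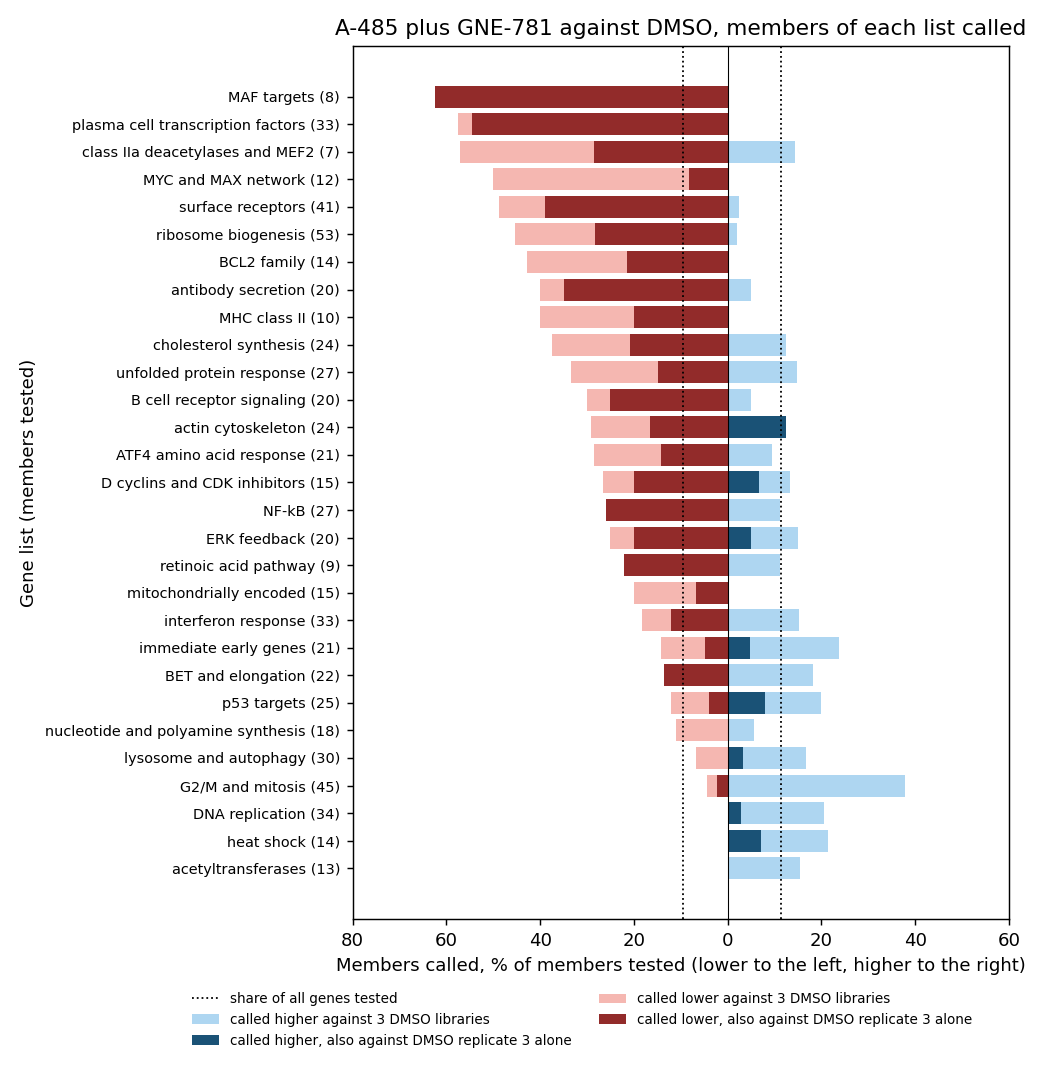
Share of tested members of each list called lower (left, red) or higher (right, blue) with the combination against DMSO, in percent, with the number tested in brackets. Dark bars are members also called the same way against DMSO replicate 3 alone and dotted lines are the shares over all genes tested, 9.60% lower and 11.4% higher. Dark red fills most of the bars of MAF targets and plasma cell transcription factors, while the right-hand bars are mostly pale. Over all genes tested, too, a larger share of rises than of falls lost the call against DMSO replicate 3 alone.

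Antigen presentation and secretion genes fell in part. CIITA, the transactivator of MHC class II genes, had 224, 240.4 and 280.4 in DMSO and 68.5, 60.0 and 71.0 in the combination (−1.88 ± 0.29, limma adjusted p = 3.6e-05). Of 10 genes of this list 4 fell and 0 rose, with a median of −0.36. HLA-DRA had −0.86, and its partner chain HLA-DRB1, whose reads may be shared with similar HLA genes, had −0.02 and was not called. Against DMSO replicate 3, 2 of the list fell, and leaving out DMSO replicate 1, combination replicate 1 or combination replicate 2 also left 2 falls. The unfolded protein response had 9 falls and 4 rises of 27 genes (median −0.20), with 6 falls and 2 rises when DMSO replicate 2 was left out and 6 falls and 1 rise when combination replicate 2 was. Against DMSO replicate 3 there were 5 falls and 0 rises. Its sensor kinase ERN1 had 1437, 1257 and 1415 in DMSO and 537, 664 and 673 in the combination (−1.14 ± 0.14). The rises, DDIT3 (0.60), ATF4 (0.53), CRELD2 (0.49) and the chaperone HSPA5 (0.43), were not called against DMSO replicate 3. Of 20 genes of antibody assembly and secretion 8 fell and 1 rose, 7 of the 8 also against DMSO replicate 3, with a median of −0.39, and DESeq2 called 12 lower and 2 higher. TXNDC5, a disulfide isomerase, had 1228, 1438 and 1256 in DMSO and 449.9, 308 and 465 in the combination (−1.70 ± 0.27), and MZB1, which helps assemble IgM, had −0.70 ± 0.115. In cholesterol and fatty acid synthesis 9 of 24 genes fell and 3 rose (6 and 0 without DMSO replicate 2, and 5 and 0 against DMSO replicate 3), with a median of −0.28. SREBF1, the factor of fatty acid synthesis, had 1695, 1786 and 1805 in DMSO and 608, 781 and 992 in the combination, and INSIG1, its retention partner, had −0.77 ± 0.145.

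The remaining lists had calls in both directions or few calls. Some of their shares were close to those over all genes tested, 11.4% higher and 9.60% lower. Of 24 actin cytoskeleton genes 3 rose and 7 fell (median −0.21). TPM1 and LIMA1 were among the rises. Profilin PFN1 fell (−1.32 ± 0.18), as did the intermediate filament VIM (−0.94 ± 0.15). All 3 rises and 4 of the 7 falls were also called against DMSO replicate 3. Of 9 retinoic acid pathway genes tested (median 0.02), RARA and CYP26A1 fell and RXRA rose (0.74, not called against DMSO replicate 3). Of 7 class IIa deacetylase and MEF2 genes (median −0.52) 4 fell, HDAC9, HDAC4 (−0.86), HDAC5 (−0.63) and MEF2C. Against DMSO replicate 3, HDAC4 (−0.89) and HDAC5 (−0.64) kept a fall of similar size and were not called. HDAC7 was called higher (0.73 ± 0.23), a call lost without DMSO replicate 1, DMSO replicate 2 or combination replicate 2, but it had 1076, 795 and 2004 in DMSO and 1874, 2517 and 1662 in the combination, with overlap, and was −0.01 against DMSO replicate 3. Of 25 p53 targets 5 rose and 3 fell, and TP53INP1, a regulator of autophagy and cell death, had 950.4, 1025 and 904 in DMSO and 297, 304 and 297 in the combination (−1.675 ± 0.16). Interferon response genes had 5 rises and 6 falls of 33 (median −0.02), amino acid response genes of ATF4 2 and 6 of 21 (median −0.30), lysosome and autophagy genes 5 and 2 of 30 (median 0.21), and heat shock genes 3 and 0 of 14 (median 0.14). Against DMSO replicate 3 the rises and falls were 2 and 1 for p53 targets, 0 and 4 for interferon, 0 and 3 for ATF4, 1 and 0 for lysosome and 1 and 0 for heat shock genes. The ATF4 genes had 3 rises and 10 falls with TMM scaling. Median-ratio scaling gave 2 rises and 11 falls, and edgeR and DESeq2 each gave 3 and 11. The heat shock genes had 5 rises and 0 falls under TMM and by edgeR, and 5 and 1 by DESeq2. Leaving out 1 library moved some of these counts. Without DMSO replicate 1 the rises and falls were 3 and 2 for p53 targets, 2 and 5 for interferon and 2 and 2 for lysosome genes. Without DMSO replicate 2 they were 3 and 4 for interferon and 3 and 1 for lysosome genes, without combination replicate 2 they were 2 and 3 for p53 targets, and without combination replicate 3 they were 2 and 3 for interferon genes. HSP90AA1, the inducible cytosolic HSP90, was the heat shock gene called in both fits (0.93 ± 0.16, and 0.72). Of 15 mitochondrially encoded genes 3 fell, MT-RNR1 alone also against DMSO replicate 3, and without DMSO replicate 3 there were 5 falls and 1 rise. edgeR called 7 of the 15 lower and DESeq2 8. HBB, a globin, was the marker of another cell type that fell (−0.955 ± 0.29), a call lost without DMSO replicate 3, combination replicate 1 or combination replicate 2.

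Each inhibitor alone was also compared with DMSO for the 24 genes chosen above. The DMSO libraries are the same in all 3 comparisons, which are thus not independent, and the genes were chosen for large changes with the combination. GNE-781 alone called 2679 genes (16.6%), 7.82% of genes tested higher and 8.81% lower, and A-485 alone 345 (2.14%), 0.348% higher and 1.79% lower. Of the 12 falls, GNE-781 alone called 12 and A-485 alone 9, and of the 12 rises 12 and 6. The median over the falls was −2.08 with the combination, −1.79 with GNE-781 and −1.02 with A-485, and over the rises 1.31, 1.21 and 0.645. MYC stood at 833 ± 254 with A-485, 434 ± 99.6 with GNE-781 and 268 ± 129 with both. EGR1 stood at 45.4 ± 15.7, 232.5 ± 58.3 and 339.5 ± 69.4. IRF4 stood at 1887 ± 413, 866 ± 153 and 688 ± 211, and TAF6L at 93.9 ± 8.53, 73.1 ± 8.81 and 72.4 ± 3.98.

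**Figure D4:**
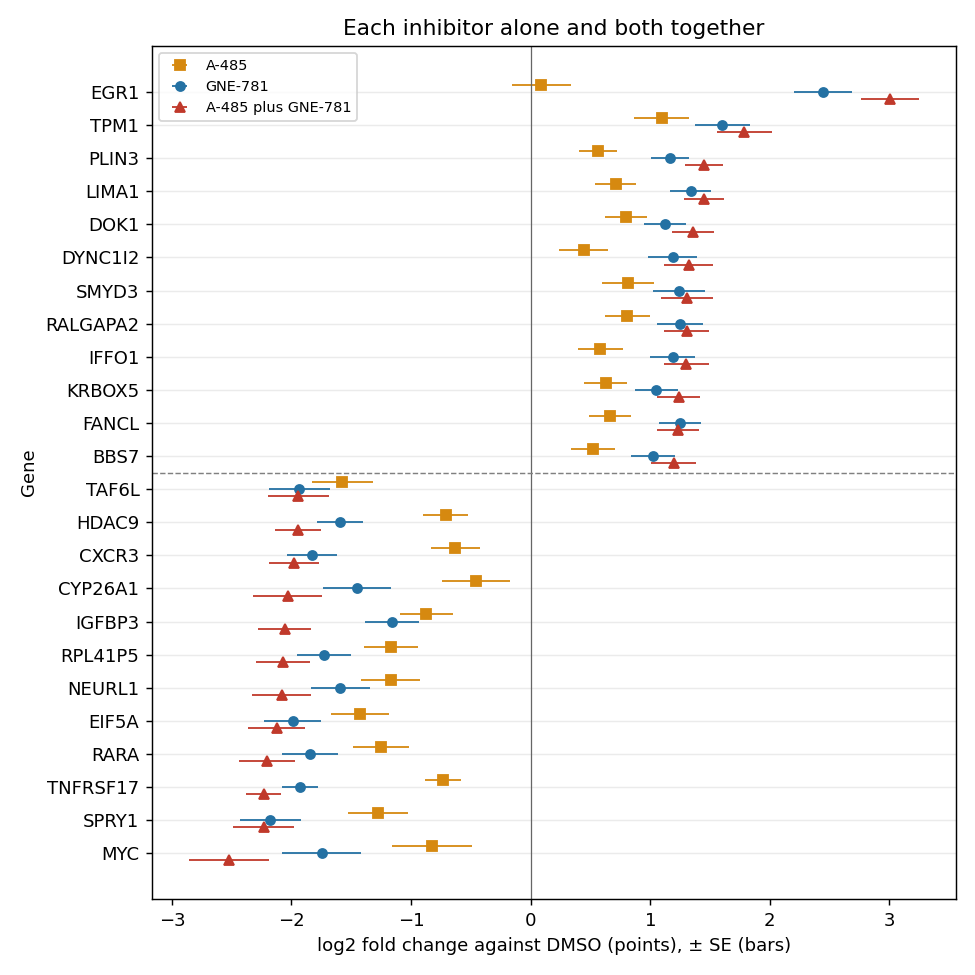
Log2 fold change against DMSO (x axis, bars are ± SE) with A-485 (orange squares), GNE-781 (blue circles) and both (red triangles), for the 12 rises above the dashed line and the 12 falls below it (y axis). The combination lies further from 0 than A-485 in all 24 genes, which were chosen for large changes with the combination, with EGR1 at 3.0 the furthest rise.

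The combination was then tested directly against each inhibitor, with no DMSO library in the fold change and each compound at its same dose. In limma the spread behind the SE and p was still shared over all groups, DMSO included. Against GNE-781 alone, limma called 0 genes of 16104, with 494 at an unadjusted p below 0.05 (3.07%), 298 higher and 196 lower. edgeR on recovered reads also called 0 and DESeq2 called 7, all lower. These 7, named after their values were seen, were UBE2T, SCD, CCDC86, PIM1, IGFBP3, MACC1 and RASA3. PIM1, a survival kinase, had 826 ± 226 with GNE-781 and 475 ± 103 with both (limma log2 difference −0.78, DESeq2 adjusted p = 0.0087). IGFBP3 had 728 ± 104 and 416 ± 186 (−0.90, 95% interval −1.355 to −0.44), and it was the 1 gene that limma called when combination replicate 3 was left out. For the 24 genes, chosen for their size in the combination, it lay further from DMSO than GNE-781 in 12 of 12 falls and 11 of 12 rises, with differences of −0.90 to −0.01 and −0.02 to 0.56. The interval for MYC was −1.46 to −0.09, for EGR1 0.06 to 1.06, for IRF4 −0.76 to 0.035 and for TNFRSF17 −0.607 to −0.004. The more abundant genes are those with at least the median level of genes tested. For them the 95% interval reached a median of 0.32 on each side of the difference. That interval is per gene, with no adjustment over the 16104 genes, so a call needed a larger difference than this. MYC, EGR1, TNFRSF17 and IGFBP3 had intervals that left out 0 and were not called by limma in the main fit. A missed threshold thus does not show that the combination and GNE-781 acted alike.

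Against A-485 alone, 516 genes were called (3.20%), 263 higher (1.63%) and 253 lower (1.57%). Under TMM scaling the split was 283 higher and 707 lower, and under median-ratio scaling 271 and 708. The total was 187 without combination replicate 2, 267 without A-485 replicate 2 and 310.0 without A-485 replicate 3. The largest falls were in MAGI2, a scaffold protein, BLNK, MYC, CYP26A1 and MGLL, a lipase of monoacylglycerols. MAGI2 had 331 ± 78.8 with A-485 and 95.6 ± 15.3 with both (−1.765 ± 0.21, limma adjusted p = 2.8e-06), beside 290.5 ± 15.7 in DMSO. BLNK had 555 ± 104 with A-485, 189 ± 49.9 with both and 542 ± 41.5 in DMSO. MGLL had 451 ± 52.4, 156 ± 11.2 and 443 ± 105. In these 3 genes the A-485 level was near that of DMSO. The largest rises were in EGR1 (2.91 ± 0.24), ETV5 (1.06 ± 0.16), the potassium channel subunit KCNS3 (1.05 ± 0.24), IFI6, an interferon-induced gene (0.99 ± 0.22), and DOP1B (0.99 ± 0.20). Without combination replicate 2 the last 3 lost their call, as did KCNS3 without A-485 replicate 3 and IFI6 without A-485 replicate 1. IFI6 had 119 ± 25.3 with A-485, 237 ± 38.35 with both and 175 ± 6.25 in DMSO, and was not called against DMSO. Of the 24 genes, 10 falls and 6 rises were called against A-485. TNFRSF17 (−1.50 ± 0.15) and PTK2B (−1.02 ± 0.13) were among the genes called lower, and CCND2 (−0.29, limma adjusted p = 0.31) was not called.

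Last, the change with both inhibitors was compared with the sum of the changes with each, on the log2 scale. A value above 0 means that the combination level was higher than the sum. limma called 72 genes (0.447%), 70 above (0.435%) and 2 below (0.0124%). Under TMM or median-ratio scaling 1 was called, NFKB2 in each, and against DMSO replicate 3 alone 2, NFKB2 and IL18R1. DESeq2 called 89 above and 17 below. With 1 library left out the count ran from 9, all above, without DMSO replicate 2 to 213 without DMSO replicate 3, of which 134 were above and 79 below. DMSO replicate 3 was the lowest DMSO library for 44 of the 70 (62.9%), against 17.5% of all genes tested. NFKB2, the precursor of the p52 subunit of NF-kB, had 2063, 2324 and 1606 in DMSO and 846, 819 and 1001 in the combination. It stood at 782 ± 143 with A-485 and 705 ± 29.95 with GNE-781, so both single treatments and the combination lay at a similar level below DMSO. The departure from the sum was 1.68 ± 0.21 (limma adjusted p = 0.00012). The splicing factor gene SF3A2, TYMP, which encodes thymidine phosphorylase, and TAF6L also departed from the sum, with 383 ± 81.1, 157 ± 22.96 and 93.9 ± 8.53 with A-485 beside 413 ± 49.95, 168 ± 23.4 and 72.4 ± 3.98 with both. SPATC1L differed from these. It had 537, 559 and 601 in DMSO and 511, 393 and 795 in the combination, with overlap, against 315 ± 128 with A-485 and 301 ± 71.9 with GNE-781. Of the 2 genes below the sum, FCRL4, named after its values were seen, was at 0 in DMSO replicates 1 and 2 and at 10.9 in replicate 3, and the other has no symbol here.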

How the data were processed

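RNA of MM.1S cells was lysed in Trizol with spike-in controls and sequenced as 3′ end libraries (QuantSeq FWD), per the labels' protocols. The build is hg19, per the submitters' processing notes. Aligner, counting tool, annotation and strandedness are not given in the sources used here, so reads of antisense or overlapping genes may be shared. The authors deposited a gene-level signal per library under the name of normalized read counts. Of the values, 100% were whole multiples of 1 step per library within a tolerance of 0.01 read, so they are reads divided by 1 factor per library, and reads were recovered for edgeR and DESeq2. The table holds 47459 gene rows with values and 0 spike-in rows. Its last row has no value, and any genes with identifiers beyond it are not covered. Symbols matched 96.5% of identifiers. Promoters came from RefSeq on GRCh38.p14, and no other coordinates are given.

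Samples were grouped by title. In 2 of the combination libraries the treatment is written as GNE-782 or GNE-783, and the molecule of every library as genomic DNA. These entries were read as slips in the labels, with no test of that. The 16104 genes that reached 5 in 3 or more of the 15 libraries were tested with limma-trend (limma 3.58.1, R 4.3.3) on log2(value + 1) in 1 model of 5 group means, two-sided, adjusted by Benjamini-Hochberg and called below 0.05. A fold change on this scale understates the change of low genes. Errors are SD for levels and SE for log2 fold changes. Replicates differed by more than counting error (chi-square per degree of freedom 8.81 to 42.2).

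Named are the 12 largest rises and falls called in both fits, without overlap and at or above the median level, 5 and 5 in the other comparisons, up to 5 members of each list by p, and CREBBP, EP300, MYC, IRF4 and EGR1. Other list members are given as their list's counts need. Genes without a symbol, clone names, antisense and LINC genes were skipped. Members, lists and this rule were chosen with earlier results of these data known. Alternatives were TMM and median-ratio scaling, pseudocounts of 0.25 and 5, a filter at 20 or none, a fit of the compared groups alone, the replicate number as a block, edgeR 4.0.16, DESeq2 1.42.0, DMSO replicate 3 alone, and each library left out. Values of some list members are not reported here.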

Additional observations from a re-analysis of the deposited data

Results flagged for a closer look

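For 8 genes named in the report, the effect of GNE-781 added to A-485 differed from its effect on its own, by a test of that difference in limma (the change with both minus the sum of the changes with each, log2). All 8 lay above 0, so the combination level was higher than the sum of the single changes. NFKB2 had 1.68 (adjusted p = 0.00012), and it was called under TMM scaling (1.57, adjusted p = 0.016, limma), under median-ratio scaling (1.60, adjusted p = 0.014, limma) and against DMSO replicate 3 alone (1.38, adjusted p = 0.034, limma). SF3A2 had 1.89 (limma adjusted p = 0.00083), SPATC1L 1.80 (0.0089), TYMP 1.78 (0.0037), TAF6L 1.57 (0.041), SLC7A5 1.05 (0.037), BCL2L1 1.03 (0.04) and HDAC5 0.98 (0.048). None of these 7 was called under either scaling or against DMSO replicate 3 alone. Adjusted p under TMM scaling ran from 0.073 for SF3A2 to 0.20 for SLC7A5, and against DMSO replicate 3 alone from 0.10 for SF3A2 to 0.45 for TAF6L. SLC7A5, an amino acid transporter, stood at 1987 ± 119 in DMSO, 967 ± 191 with A-485, 775 ± 55.1 with GNE-781 and 781 ± 157 with both (SD, n = 3). The call of TAF6L was lost on leaving out any 1 of the 12 DMSO, single inhibitor or combination libraries other than DMSO replicate 3. It was also lost by edgeR, with no filter, with a pseudocount of 0.25 and with the replicate block. SPATC1L lost its call without A-485 replicate 1 or GNE-781 replicate 1, by edgeR, by DESeq2 and with no filter. Calls of SLC7A5, BCL2L1 and HDAC5 by these tools, or without a library other than DMSO replicate 3, were not followed gene by gene. The part of DMSO replicates 1 and 2 and of scaling in these values was not tested beyond these alternatives.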

How the results depend on the processing

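Of the 168 genes named by the rule, without the other list members given in the text, 150 were called in the combination against DMSO. Over 2853 alternative fits of their log2 fold changes, 2705 kept direction and side of the threshold, 110 lost the call (54 of them against DMSO replicate 3 alone), 34 gained it and 4 reversed. The 24 genes chosen as largest changes kept their call in 408 of 408 fits under 17 settings. They had been chosen as called against DMSO replicate 3 alone, 1 of these settings, and as without overlap between libraries. That count was thus largely fixed by the choice and does not measure how stable large changes are. The 4 reversals among these genes were HDAC7 (−0.013), MT-ND6 (−0.61) and CD14 (−0.10) against DMSO replicate 3 alone and SPATC1L. The last ran from −0.33 to 0.17 with 1 library left out. Outside these counts, RELA and NFKBIA of the NF-kB list also changed sign against DMSO replicate 3 alone. Reversals and lost calls of other list members were not counted. The count of genes called against DMSO, 3383, was 1064 against DMSO replicate 3 alone and 2163 with only the 2 groups in the fit, and ran from 2050 (without combination replicate 2) to 4277 (without DMSO replicate 3), with 2215 without DMSO replicate 2. Counts of calls for lists moved in 71 of 510 fits, 18 of them against DMSO replicate 3 alone. With other scalings or tools the count against DMSO was 4205 under TMM, 4183 under median-ratio scaling, 4097 by edgeR and 4375 by DESeq2. Against GNE-781 the count of 0 was 7 by DESeq2, and 0 to 1 with 1 library left out. Against A-485, 516 calls became 990 under TMM, 979 under median-ratio scaling, 1013 by edgeR, 1413 by DESeq2 and 320.0 with no filter, and ran from 187 (without combination replicate 2) to 428 with 1 library left out, with 267 without A-485 replicate 2 and 310.0 without replicate 3. The 72 departures from the sum of single effects became 1 under TMM, 1 under median-ratio scaling, 4 by edgeR, 106 by DESeq2, 2 against DMSO replicate 3 alone and 13 with no filter, and ran from 9 (without DMSO replicate 2) to 213 (without DMSO replicate 3). The cause of these shifts was not tested. With the replicate number as a block (replicate block), calls were 3036 against DMSO, 0 against GNE-781, 387 against A-485 and 34 for departures from the sum. Same-numbered DMSO and combination libraries did not deviate together (correlations −0.13, −0.23 and −0.06), so the numbers were not read as a pairing. Depth of 14.66 to 18.29 M reads limits low genes most: 3 reads, the limit that a count of 0 allows, are 2.88 to 3.64 normalized read counts in a DMSO library, for counting error only.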
